A study of Caenorhabditis elegans with 12 samples.

Results

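The effect of the spliceosomal helicase mutation *ddx-23(n5705)* on the transcriptome was measured by comparing mutant and wild-type adults across all genes. The comparison used 6 of the 12 RNA-seq libraries of the study, 3 labelled *ddx-23* and 3 labelled wild-type, and 14199 of the 46761 genes in the table had levels high enough to test. The mutants were strain MT23825, carrying allele n5705, and the controls were strain VT1367, labelled wild-type. Mutants of *lin-29* (allele n836, strain MT24358) and *mab-10* (allele tm2497, strain MT19733) were sequenced alongside, with 3 libraries each. By the study's strain list all of these strains carried maIs105, a *col-19::gfp* reporter transgene, so reporter animals served as the controls. RNA came from whole, age-synchronised young adult hermaphrodites that were picked by hand and pooled. Per the study's methods n5705 is a missense allele from a chemical mutagenesis screen of *mab-10* mutants for weaker reporter expression, null alleles are lethal, and the isolate held another missense change in the same gene. The study takes it as a partial loss of function, and the data describe 1 isolate of that kind.

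DEAD-box helicases remodel RNA and RNA-protein complexes. In yeast and human cells the counterpart of DDX-23 acts when the tri-snRNP joins the pre-mRNA, where it helps to exchange U1 for U6 at the 5′ splice site. In *C. elegans* the hypodermis secretes a new collagenous cuticle at each molt, and at the last molt the EGR-family factor LIN-29, with its NAB co-factor MAB-10, switches this tissue from larval to adult gene expression, including expression of the adult collagen *col-19*. The hypodermis is also the source of antimicrobial peptides that are made after infection or wounding.

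Levels are on the log2(FPKM+1) scale, FPKM being the fragment count of a gene scaled to its transcript length and to the library size, and a difference is the mean of the *ddx-23* libraries minus the mean of the wild-type libraries on that scale. Adding 1 makes a difference understate the fold change of genes with low levels. Calls of higher or lower required that limma gave an adjusted p under 0.05 with a difference past 1, and a gene passed, rose or fell where the adjusted p alone met the threshold, as 8.63% of all tested genes did.

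Wild-type replicate 3 stood apart from the other controls. The median absolute difference between wild-type replicates 1 and 2 was 0.113, but it was 0.312 and 0.32 between replicate 3 and replicates 1 and 2, whereas the *ddx-23* libraries differed from each other by 0.118 to 0.14. Along the leading principal component of all 12 libraries (45% of the variance) wild-type replicates 1 to 3 lay at -52.8, -58.9 and -14.4. The *ddx-23* libraries lay between -33.3 and -27.7 on it. Along the next component (19.3%) wild-type replicate 3 lay with the other controls, apart from the mutants. There wild-type replicates 1 to 3 were at -23.17, -28.96 and -28.79, and the *ddx-23* libraries between 39.39 and 47.68. Replicate 3 also carried a later library number (3248) than the other 5 libraries (3233 to 3241). Some abundant genes, chosen after their values were seen, were nearer to the mutant levels in that library than in the other controls: *pud-3*, a gene named for its higher protein level in *daf-2* mutants, was at 11.23, 11.16 and 7.22 in wild-type and at 6.32, 5.80 and 6.15 in *ddx-23* libraries (difference -3.78, adjusted p = 0.109). The vitellogenin gene *vit-1*, which encodes a yolk protein, was at 11.38, 11.37 and 9.77 against 9.56, 9.56 and 9.66 (difference -1.25, adjusted p = 0.144). Results that rest on this library are therefore given with and without it.

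The targeted gene was checked first. Transcripts of *ddx-23* (WBGene00017162, chromosome III, 5848838 to 5853269, minus strand, WBcel235) were not reduced. Its level was 5.68, 5.72 and 5.75 in wild-type and 6.04, 6.15 and 6.2 in the mutants, with no overlap. The difference was 0.42 (SE 0.07, adjusted p = 0.00432), and the gene was also higher in *ddx-23* than in *lin-29* (0.34, adjusted p = 0.00653) and *mab-10* mutants (0.31, adjusted p = 0.0236). A missense change need not alter a gene-level read count, so these levels do not check the genotype labels.

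Genes of the larval-to-adult switch showed small differences. *lin-29* was at 1.90, 2.0 and 2.13 in wild-type and 2.77, 3.05 and 2.68 in *ddx-23* libraries, 0.82 higher (SE 0.18, adjusted p = 0.0191). For *mab-10* the values were 2.16, 2.03 and 2.72 against 2.84, 2.91 and 2.97, a difference of 0.60 that did not pass (adjusted p = 0.11). The adult collagen *col-19* did not pass: its level was 9.01, 8.76 and 7.01 in wild-type and 9.12, 9.20 and 9.01 in the mutants (difference 0.85, adjusted p = 0.335, and 0.22 without wild-type replicate 3). Its level was 4.81 higher in *ddx-23* than in *lin-29* mutants (adjusted p = 9.7e-05) and 1.89 higher than in *mab-10* mutants (adjusted p = 0.039). The FPKM of *col-19* may include reads of the reporter if it holds *col-19* sequence, which was not tested. Of 12 tested heterochronic genes, *lin-29* and *ddx-23* alone passed (1 of them passed without wild-type replicate 1 or 2 or *ddx-23* replicate 1 or 2, and 3 genes without wild-type replicate 3). The RNA-binding protein gene *lin-28* and the temporal factor genes *lin-14* and *hbl-1* had differences of -0.19, 0.67 and -1.15 (adjusted p = 0.529, 0.317 and 0.396). None of 13 genes of the microRNA machinery passed in limma (3 were lower at an unadjusted p under 0.05, and 1 passed as lower without wild-type replicate 3), and their median difference was -0.00.

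Changes were mostly increases. Of the tested genes 667 were called higher, or 4.70%, and 57 lower, or 0.401%. The 3 *ddx-23* and 3 wild-type libraries did not overlap for 666 of the 667 and for all 57, beside 24.1% of all tested genes in the direction of an increase, 9.35% in that of a decrease and 33.5% in either. Genes called higher had a median level of 2.14 in wild-type and 4.12 in *ddx-23* libraries, whereas all tested genes had a median of 3.47 and the genes called lower one of 4.39 in wild-type. The differences over 4 numbered 35 among the increases, and 6 decreases exceeded 2. Over all tested genes the median difference was 0.09, which scaling the libraries by their median ratio moved to -0.01 and quantile normalization to -0.07. Increases made up 92.1% of the calls as deposited, 87.4% after scaling by the median ratio and 75.2% after quantile normalization. Leaving out wild-type replicate 3 gave 977 higher and 125 lower calls, while the higher calls numbered 428 without wild-type replicate 2 and 434 and 444 without *ddx-23* replicates 1 and 2. Lower calls numbered 32 when wild-type replicate 1 was left out and 31 when *ddx-23* replicate 2 was.

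**Figure D1:**
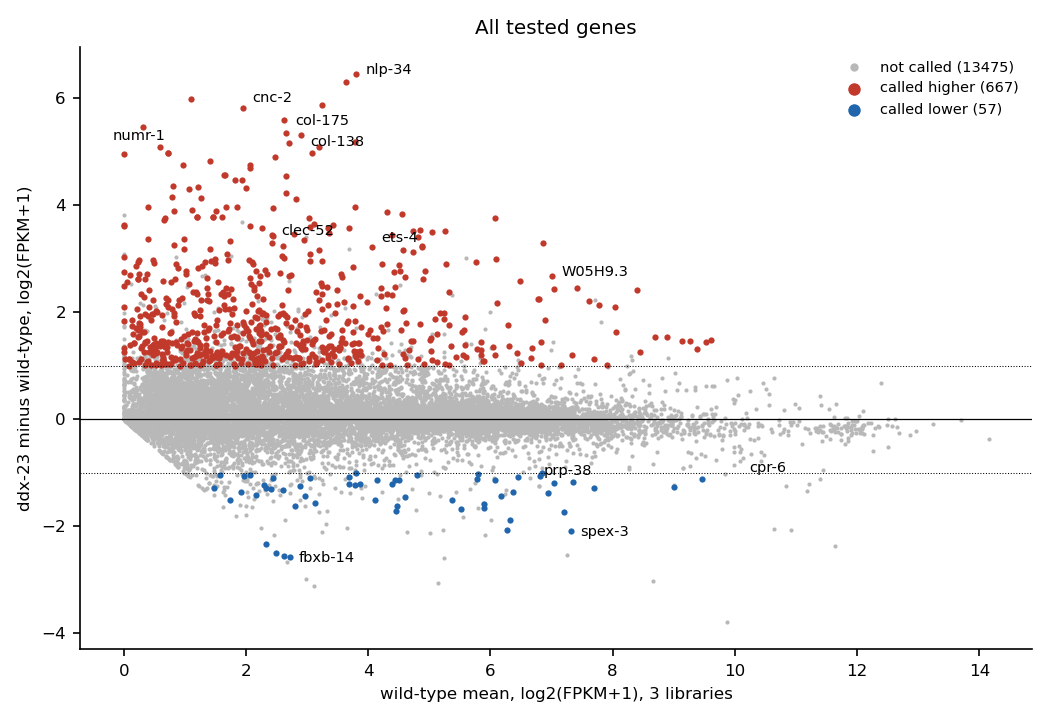
Each point is 1 of the tested genes, with the mean level in the 3 wild-type libraries on the x axis and the difference between *ddx-23* and wild-type on the y axis, both in log2(FPKM+1). The 667 genes called higher (red) lie mostly at low wild-type levels and reach 6.45, while the 57 called lower (blue) reach -2.57, and dotted lines mark a difference of 1 in either direction.

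The genes with the largest increases included secreted peptides and cuticle collagens. The epidermal peptide gene *nlp-34*, on chromosome V from 3978825 to 3979134, was at 3.10, 3.09 and 5.21 in wild-type and at 10.46, 10.07 and 10.22 in *ddx-23* libraries. The caenacin genes *cnc-4* and *cnc-2*, which encode antimicrobial peptides, rose by 5.87 (SE 0.78, adjusted p = 0.00108) and 5.83 (SE 0.74, adjusted p = 7.54e-04). The gene *fip-6*, of a family of small secreted peptides induced by fungal infection, was at 2.97, 2.72 and 2.17 against 8.38, 7.90 and 8.37 and rose by 5.60 (SE 0.67, adjusted p = 5.59e-04). Both copies of *numr-1*, a nuclear protein known from the response to cadmium, rose by 4.98 (SE 0.42, adjusted p = 8.2e-05), but the table gives them the same values, so they count as 1 measurement. The others among the 15 largest were the collagens *col-175*, *col-138*, *col-73*, *col-38* and *col-71* (increases of 5.10 to 5.36), *srlf-34* (6.30), *F48C1.9* (5.99), *Y49F6B.12* (5.46) and *F35B3.4* (5.08).

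Other genes changed with smaller spread between libraries, and these were picked out after their values were seen, as the smallest p-values. The non-coding RNA gene W05H9.3, on chromosome X from 6252274 to 6253785, had the smallest. It was at 7.04, 7.02 and 6.96 in wild-type and 9.60, 9.82 and 9.63 in *ddx-23* libraries (difference 2.68, SE 0.12, adjusted p = 2.05e-06), and it was 2.64 and 3.04 higher than in *lin-29* and *mab-10* mutants. The gene *ets-4*, which encodes an ETS-domain transcription factor active in the intestine, rose from 4.0, 4.17 and 4.0 to 7.33, 7.16 and 7.34 (difference 3.22, SE 0.17, adjusted p = 7.14e-06) and was 2.80 and 3.02 above the other mutants. The transthyretin-like gene *ttr-18* rose from 6.84, 6.51 and 7.24 to 10.11, 10.17 and 10.18. None of these wild-type and mutant ranges touched, which also held for 666 of the 667 genes called higher. Another gene of this kind was *eak-6*, a phosphatase-like gene that acts with *akt-1* in insulin-like signalling, at 0.42, 0.60 and 0.11 against 3.34, 3.01 and 2.93 (difference 2.72, adjusted p = 3.08e-05). The small nucleolar RNA gene *C06A1.8* was listed at 0 in all libraries of the other 3 genotypes and at 2.51, 1.87 and 1.90 in the *ddx-23* libraries.

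Among the gene lists, cuticle collagens held the largest number of increases. Of 134 tested collagen genes, 54 passed as higher and 0 as lower in limma (73 higher and 7 lower at an unadjusted p under 0.05), and 53 were called higher with the fold, beside 4.70% of all tested genes. The count was 42 to 57 with any 1 library left out, and 2 were lower without wild-type replicate 3. The median difference of the 134 was 1.22, beside 0.09 for all tested genes. The summed FPKM of the collagens was 17392, 14565 and 8984 in the wild-type and 31811, 35040 and 29850 in the *ddx-23* libraries, so each mutant library held more than any control. In whole animals a larger number of cells of a type and more RNA per cell cannot be told apart.

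The collagens that rose fell into different patterns when the other mutants were set beside them. Of 4 collagens known from the last larval stage 3 rose, and *col-63* (0.28, adjusted p = 0.858) did not pass. The 3, *col-138*, *col-38* and *col-49*, were low in every other genotype: *col-38* was at 3.65, 2.49 and 1.98 in wild-type and 7.85, 8.19 and 7.59 in *ddx-23* libraries, with means of 3.51 in *lin-29* and 2.48 in *mab-10* mutants. The adult collagens *col-7* and *col-62* behaved alike in this respect. *col-7* rose from 3.15, 1.51 and 4.44 to 6.71, 7.19 and 6.48 (difference 3.76, SE 0.63, adjusted p = 0.00395), and it was 4.25 above *lin-29* (adjusted p = 0.001) and 6.59 above *mab-10* mutants (adjusted p = 2e-04). *col-175* was at 2.79, 1.77 and 3.42 against 7.91, 8.43 and 7.71 (difference 5.36, adjusted p = 2.75e-04), while its means were 0.14 in *lin-29* and 0.79 in *mab-10* mutants. Other collagens that rose were also high in *lin-29* mutants, with no difference between the mutants past the threshold. The body-shape collagens *dpy-5* and *dpy-4* rose by 4.97 and 4.90 in *ddx-23* libraries (adjusted p = 6.43e-04 and 0.00127), and their means were 9.57 and 8.72 in *lin-29* but 1.93 and 1.64 in *mab-10* mutants. *col-73* stood at 9.02, 9.19 and 8.74 in *ddx-23* libraries with means of 9.3 and 2.35 in the same order. Of the 134 collagens 33 were higher and 60 lower in *ddx-23* than in *lin-29* mutants (backgrounds 6.99% and 14.2%), and 44 were higher and 10 lower than in *mab-10* mutants (4.89% and 3.19%).

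Some abundant collagens rose too, and the following 7 were picked after their values were seen. *col-42*, *col-98* and *col-103* had wild-type levels of 6.27 to 8.21 and rose by 2.11, 2.14 and 2.25. *col-181* was at 10.20, 9.96 and 8.65 in wild-type and at 11.11, 11.11 and 11.07 in *ddx-23* libraries (difference 1.49, SE 0.33, adjusted p = 0.019). *col-122*, *col-106* and *col-184* rose by 1.47, 1.54 and 1.55. All 3 wild-type libraries lay below all 3 mutant libraries for each of these 7 genes, with wild-type replicate 3 the lowest for *col-181*. The same held for 666 of the 667 genes called higher, so the separation does not mark out these 7. Other abundant collagens did not pass, such as *col-140* (0.78, adjusted p = 0.0565), *col-119* (0.77, adjusted p = 0.118), *col-20* (-0.06, adjusted p = 0.96) and *col-8* (-0.45, adjusted p = 0.542).

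Genes of the annular furrows and the temporary precuticle gave no increases that passed. Of the 6 furrow collagens, which pattern the body surface, none passed in limma (0 higher and 2 lower at an unadjusted p under 0.05), and their median difference was -0.86. *dpy-7* was at 1.52, 1.3 and 3.91 in wild-type and 0.18, 0.10 and 0.36 in *ddx-23* libraries (difference -2.04, adjusted p = 0.068, and -1.2 without wild-type replicate 3, when the median of the 6 was -0.15). After quantile normalization 2 of the 6 passed as lower. All 6 were lower in *ddx-23* than in *lin-29* mutants, *dpy-7* by 5.21 (adjusted p = 2.4e-04), and 3 were lower than in *mab-10* mutants. Among all tested genes 14.2% passed as lower than in *lin-29* and 3.19% as lower than in *mab-10* mutants. Of 14 genes of the precuticle, a matrix that is laid down before each new cuticle and then removed, none passed (0 higher and 7 lower at an unadjusted p under 0.05; 1 was lower without wild-type replicate 2, and 5 after quantile normalization), with a median of -0.72 that was -0.27 without wild-type replicate 3. The lipocalin gene *lpr-3* was at 1.94, 1.71 and 3.69 against 1.02, 0.61 and 1.12 (difference -1.53, adjusted p = 0.0793, and -0.91 without wild-type replicate 3). Its wild-type and mutant ranges did not overlap. In *lin-29* mutants *lpr-3* averaged 5.60, and 13 of the 14 genes were lower in *ddx-23* than in *lin-29* mutants (14.2% of all tested genes). The collagens *dpy-14*, *sqt-3* and *dpy-17*, which are made early in each cuticle cycle, had differences of -2.59, -2.12 and -2.06 that did not pass (adjusted p = 0.082, 0.195 and 0.187), with wild-type replicate 3 the highest control for each. Of 26 cuticlins, 1 passed as higher, *cut-4* (1.06, adjusted p = 0.00643), and 2 did without wild-type replicate 3.

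**Figure D2:**
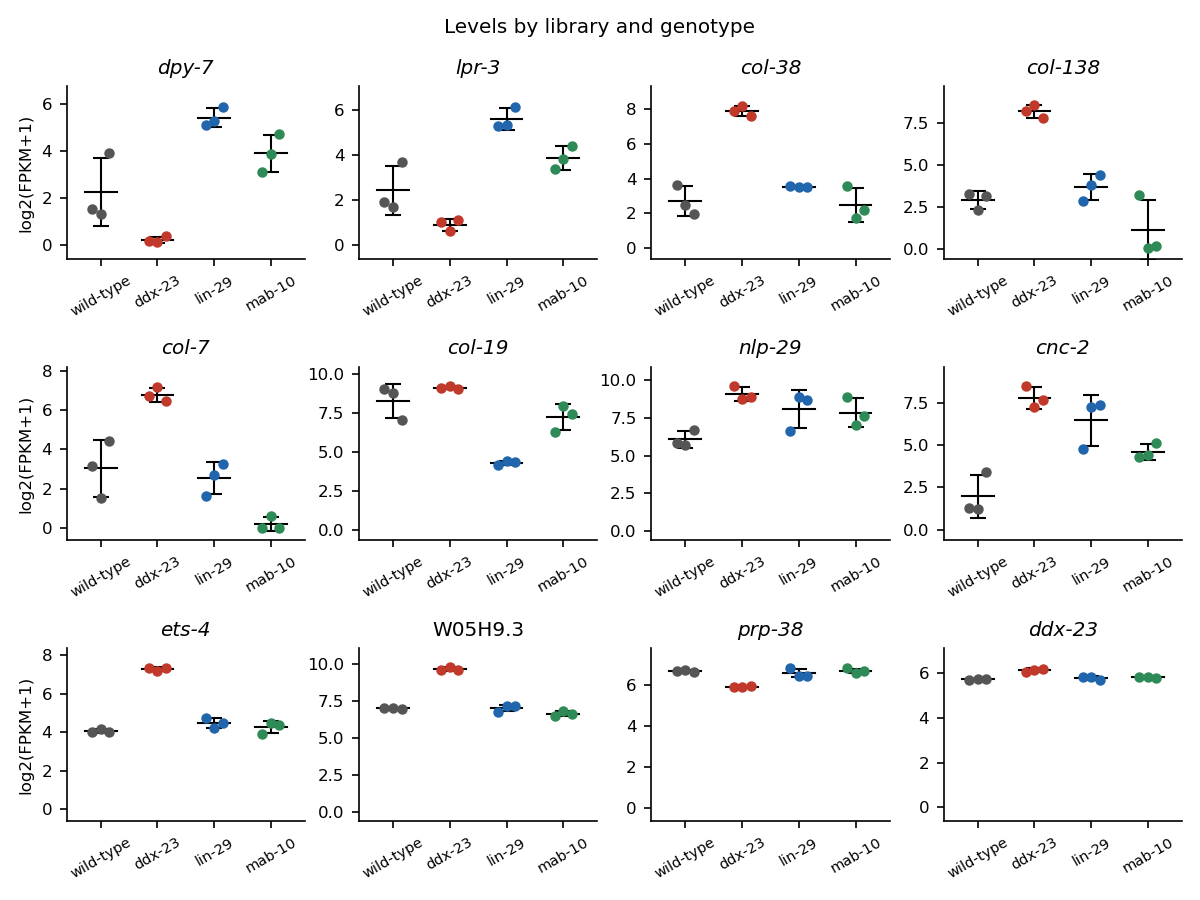
Levels of 12 genes in log2(FPKM+1) in the 3 libraries of each genotype, with 1 point for each library, bars at the mean and whiskers of 1 SD. *col-38*, *col-138*, *col-7*, *ets-4* and W05H9.3 were high in *ddx-23* libraries alone, *dpy-7* and *lpr-3* were lowest there and highest in *lin-29*, *col-19* was lowest in *lin-29*, and *prp-38* was lowest in *ddx-23* libraries.

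Some of the enzymes that act on cuticle proteins rose, in lists set beside the 7.17% of all tested genes that rose. Of 18 collagen-processing genes 5 rose: *dpy-18*, the catalytic subunit of a prolyl hydroxylase, by 2.32 (4.08, 3.76 and 5.34 against 6.65, 6.98 and 6.51), the tetraspanin gene *tsp-15* by 0.95, the procollagen peptidase gene *dpy-31* by 0.86, the proprotein convertase gene *bli-4* by 0.39 and the thioredoxin-like gene *dpy-11* by 0.37. *dpy-18* passed in all 17 alternatives, but of the list 3 rose without wild-type replicate 1 or 3, 2 without *ddx-23* replicate 1 or wild-type replicate 2, and 1 without *ddx-23* replicate 2 or 3 or after quantile normalization. Of 5 tyrosinase genes, enzymes that oxidise tyrosine residues, 4 rose. The count was 3 after either rescaling and when wild-type replicate 1 or 2 or any *ddx-23* library was left out. It was 5 without wild-type replicate 3. *tyr-1* went from 1.90, 1.84 and 2.78 to 5.0, 5.02 and 4.85 (difference 2.78, adjusted p = 2.44e-04) and *tyr-4* from 3.94, 3.72 and 4.30 to 6.09, 6.18 and 6.26 (difference 2.19, adjusted p = 1.48e-05). Against the other mutants *tyr-1* was 1.52 higher in *ddx-23* than in *mab-10* (adjusted p = 0.0106), and its difference of 0.57 from *lin-29* did not pass (adjusted p = 0.179). Of 24 astacin metalloproteases 4 rose, and *nas-10*, at 0, 0 and 0.15 in wild-type and 2.64, 2.42 and 2.79 in *ddx-23* libraries, was the member that was also higher than in both other mutants (2.03 and 2.14). The astacin count was 3 when wild-type replicate 1 or 2 or any *ddx-23* library was left out, and 5 without wild-type replicate 3.

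Some genes that anchor muscle through the hypodermis to the cuticle rose, and so did some muscle genes. The share of all tested genes that rose was 7.17%. Of 17 intermediate filament and hemidesmosome genes 5 rose, 4 to 7 with any 1 library left out, and their median was 0.48. *mua-6*, an intermediate filament gene, went from 4.58, 4.03 and 4.14 to 5.94, 5.95 and 5.84 (difference 1.66, SE 0.25, adjusted p = 0.00197). The attachment genes *mup-4*, *mua-3* and *let-805* and the filament gene *ifb-1* rose by 1.38, 1.26, 0.91 and 1.17. Of 10 body wall muscle markers 5 rose: the myosin light chain genes *mlc-1* and *mlc-2* by 1.0 and 0.67, the troponin I gene *unc-27* by 0.78, the paramyosin gene *unc-15* by 0.76 and the tropomyosin gene *lev-11* by 0.56. The count of muscle markers was 2 without wild-type replicate 2 and 3 without *ddx-23* replicate 2 or 3. Body wall muscle markers summed to 3272.1 to 3999.2 FPKM in wild-type and 5475.9 to 5601.6 in *ddx-23* libraries. The myosin heavy chain genes *myo-3* and *unc-54* differed by 0.30 and 0.28 (adjusted p = 0.528 and 0.587), and the part of muscle RNA content in the attachment gene values was not tested.

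Signalling and regulatory genes of the hypodermis gave increases in some lists. Beside 7.17% of all tested genes that rose, the share was 22.2% of Patched-related, 8.82% of hedgehog-related, 14.3% of seam cell and 6.25% of molting genes. Of 27 Patched-related genes, which encode membrane proteins related to the Hedgehog receptor, 6 rose (4 when *ddx-23* replicate 1 or 2 or wild-type replicate 2 was left out). *ptr-8* went from 1.46, 1.40 and 2.2 to 4.92, 4.74 and 4.67 (difference 3.09, adjusted p = 2.6e-04). Of 34 hedgehog-related genes 3 rose, *grd-14* (3.43), *grl-21* (1.99) and *grd-10* (1.97), and *grd-14* alone passed when wild-type replicate 1 or 2 or any *ddx-23* library was left out, while 1 of the 34 passed as lower without wild-type replicate 2. Of 16 regulators of molting the hypodermal GATA factor gene *elt-3* alone rose (0.96, adjusted p = 0.00126), with 3 passing without wild-type replicate 3. In the list of 14 seam cell genes the fusogen gene *eff-1* (1.21, adjusted p = 0.00897) and the RUNX factor gene *rnt-1* (0.85, adjusted p = 0.0197) rose. Fusogens merge hypodermal cells, and RNT-1 promotes seam cell divisions. The seam cell count was 1 when *ddx-23* replicate 1 or 2 or wild-type replicate 1 was left out, and 3 without wild-type replicate 3. None of 29 cell cycle genes passed in limma (2 were lower at an unadjusted p under 0.05).

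Antimicrobial peptide genes also rose, in lists set beside the 7.17% of all tested genes that rose and the 1.46% that fell. Of 7 tested caenacins 5 rose (4 or 5 with any 1 library left out), with a median of 2.09. *cnc-2* was at 1.26, 1.2 and 3.41 in wild-type and 8.47, 7.24 and 7.64 in *ddx-23* libraries. Of 11 epidermal *nlp* peptide genes 8 rose, with a median of 2.67. *nlp-29*, a reporter gene of epidermal infection and wounding, was at 5.85, 5.70 and 6.73 against 9.63, 8.76 and 8.89 (difference 3.0, SE 0.61, adjusted p = 0.0122), and *nlp-31* at 3.50, 3.50 and 4.36 against 7.94, 7.58 and 7.78 (difference 3.98, adjusted p = 2.72e-04). The count of *nlp* genes was 5 without *ddx-23* replicate 1 or wild-type replicate 2. Of these, *nlp-27* was above both other mutants (1.88 and 2.1), whereas *nlp-29* did not pass against either (1.0 and 1.23). Of 23 *fip*, *fipr* and *grsp* genes 7 rose and 1 fell (4 rose without *ddx-23* replicate 1 or 2, and none fell with any 1 library left out). *fip-1* was listed at 0 in all wild-type libraries and at 6.12, 3.97 and 4.78 in *ddx-23* libraries.

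Other defence genes moved in both directions. Of 13 lysozyme genes 3 rose: *ilys-2* went from 0.40, 0.70 and 3.83 to 6.31, 6.21 and 6.09 (difference 4.56, adjusted p = 0.0064), *ilys-3* rose by 3.89 and *lys-10* by 1.47. Of the list *ilys-2* alone rose when wild-type replicate 1 or 2 or any *ddx-23* library was left out, and 4 rose and 1 fell without wild-type replicate 3. Of 91 C-type lectin genes, which encode carbohydrate-binding proteins, 7 rose and 11 fell, and their median was -0.01. The share that rose was 7.69%, near the 7.17% of all tested genes, whereas only 1.46% of all tested genes fell. *clec-52* had the largest increase, from 2.86, 2.24 and 2.18 to 6.06, 5.80 and 5.78 (difference 3.46, SE 0.36, adjusted p = 2.41e-04), and was 2.39 and 3.07 above the other mutants. *clec-222* and *clec-223* fell by 1.67 and 1.71. The lectin counts were 4 and 6 without wild-type replicate 1, 4 and 5 when replicate 2 was left out, 3 and 7 without *ddx-23* replicate 1, and 3 and 3 or 4 without *ddx-23* replicates 2 and 3. None of 27 *pals* genes, which respond to intracellular infection, passed in limma (1 was higher at an unadjusted p under 0.05, and 2 were lower without wild-type replicate 3).

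Of the 57 heat shock and unfolded protein genes 4 rose, *hsp-43* by 1.92 (adjusted p = 0.00709), the ER chaperone gene *hsp-4* by 0.56, *dnj-20* by 0.42 and *dnj-5* by 0.37. The share that rose was 7.02%, near the 7.17% of all tested genes. *hsp-43* encodes a small heat shock protein. The count was 1 or 2 without wild-type replicate 1 or 2 or *ddx-23* replicate 1 or 2, and 6, with 1 lower, when wild-type replicate 3 was left out. After either rescaling 2 rose and 2 fell, and the median of 0.06 became -0.06. Of 11 genes of the osmotic stress response 3 rose, *nlp-29*, the glutathione peroxidase gene *gpx-8* (1.56) and *osm-11* (1.13), a secreted Notch ligand, while the glycerol synthesis gene *gpdh-1* differed by -0.44 and did not pass. The osmotic count was 1 without wild-type replicate 2 and 2 without *ddx-23* replicate 1.

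Some detoxification genes rose and few fell. Of 149 detoxification genes, mostly cytochrome P450, glutathione transferase and glucuronosyltransferase enzymes with some P-glycoprotein transporters, 23 rose and 3 fell, beside 7.17% and 1.46% of all tested genes at the adjusted p alone. *cyp-14A5* went from 3.99, 3.89 and 3.36 to 6.75, 6.57 and 6.47 (difference 2.85, SE 0.22, adjusted p = 5.5e-05) and *cyp-32A1* from 1.14, 1.14 and 1.71 to 4.52, 4.29 and 4.02 (difference 2.95, adjusted p = 3.78e-04), both P450 genes. *gst-24* rose by 2.77 and *ugt-53* fell by 1.55. When wild-type replicate 1 or 2 or any *ddx-23* library was left out, 13 to 16 rose and 0 or 1 fell, against 25 and 9 without wild-type replicate 3. After quantile normalization 11 rose and 7 fell, and the median of the list went from 0.22 to -0.02. Of 51 transthyretin-like genes, a nematode family of secreted proteins, 16 rose and 2 fell, with a median of 0.66. *ttr-32*, *ttr-30*, *ttr-7* and *ttr-33* rose by 3.17, 3.17, 3.06 and 2.95, and *ttr-44* and *ttr-49* fell by 0.77 and 0.64. When wild-type replicate 1 or 2 or any *ddx-23* library was left out, 9 or 10 rose and 0 or 1 fell, against 21 and 2 without wild-type replicate 3.

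**Figure D3:**
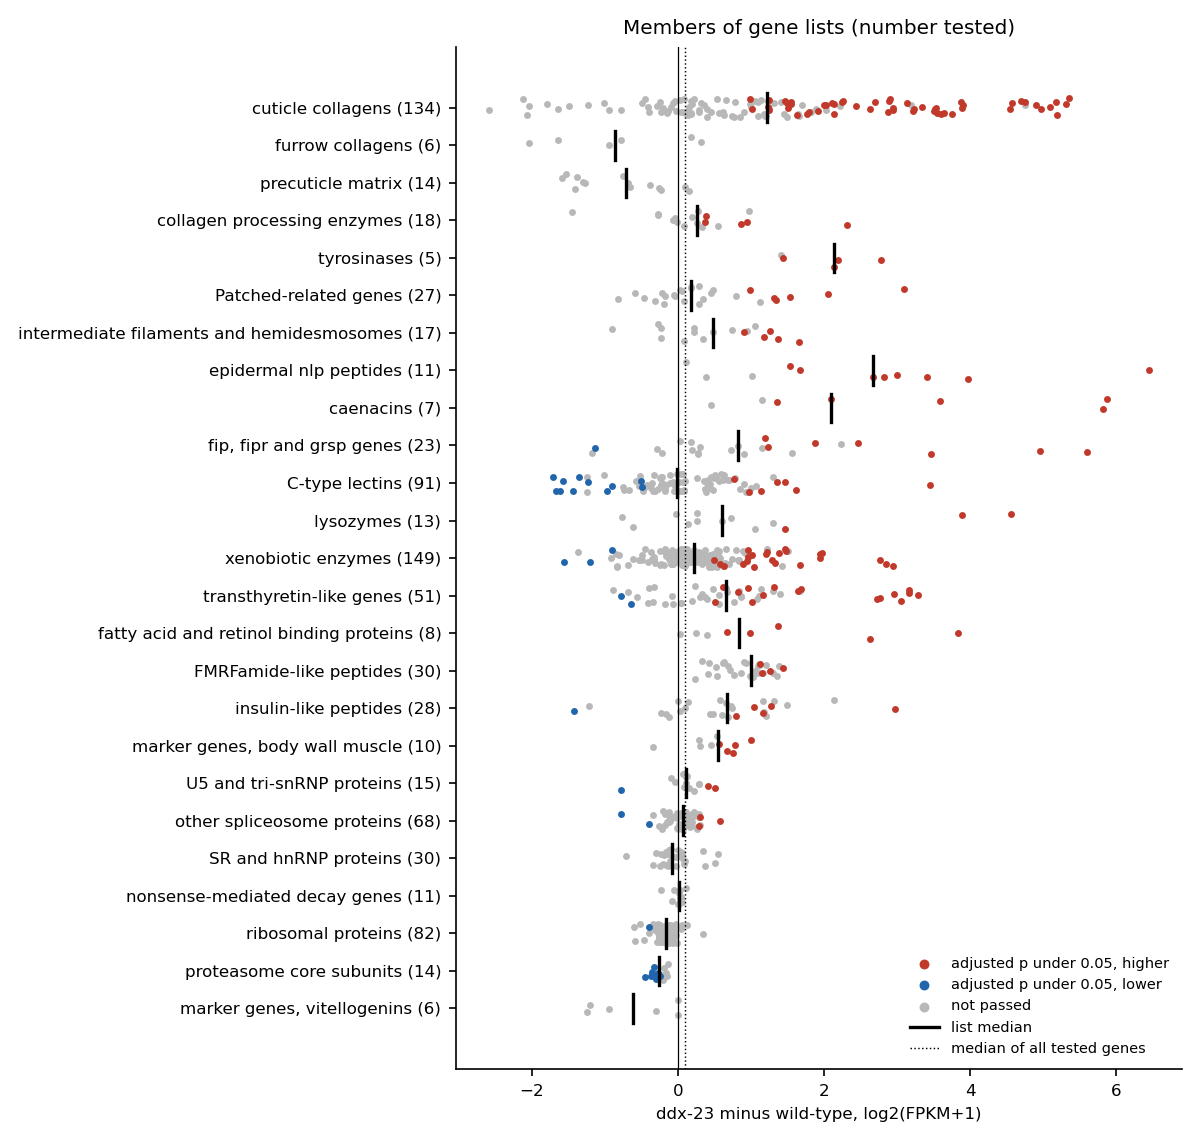
Differences between *ddx-23* and wild-type in log2(FPKM+1) for the tested members of 25 gene lists, with 1 point for each gene and a bar at the median of each list. Of the lists drawn, *nlp* peptides, tyrosinases, caenacins and collagens have the highest medians, 2.67, 2.14, 2.09 and 1.22, while precuticle and furrow genes lie mostly below it with medians of -0.72 and -0.86.

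Other families gave shares on both sides of the 7.17% of all tested genes that rose: 10.3% of *abu* and *pqn* genes, 2.35% of nuclear hormone receptors and 4.94% of F-box and MATH genes. Of 58 *abu* and *pqn* genes, which encode proteins rich in glutamine and asparagine, 6 rose, *pqn-37* by 2.63 and *pqn-92* by 1.99, and their median was 0.15, or -0.07 after quantile normalization (3 rose without wild-type replicate 1 or 2 or *ddx-23* replicate 2). Of 170 nuclear hormone receptor genes 4 rose, among them *nhr-155* (1.13), and of 243 F-box and MATH genes 12 rose and *fbxb-14* fell. Those 2 counts of increases were 15 and 19 without wild-type replicate 3 and 0 or 1 and 2 to 5 when any other library was left out. Of 74 histone genes 3 rose and 2 fell, with 0 higher when any 1 *ddx-23* library or wild-type replicate 2 was left out, and several of the 74 have values identical to another histone gene. Of 32 aspartyl and cathepsin proteases, which work in gut and lysosomes, the prolyl carboxypeptidase-like gene *pcp-5* rose by 0.89 and *cpr-6* and *cpr-9* fell by 0.73 and 0.68. The protease counts were 4 higher and 5 lower without wild-type replicate 3 and 1 of each when any other library was left out. Of 14 genes of the TGF-beta body size pathway the Smad gene *sma-3* alone rose (0.63), and it lost the threshold when any library other than wild-type replicate 3 was left out.

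Fatty acid enzymes and signalling peptides were mostly shifted upwards. Over all tested genes 7.17% rose. All 15 tested fatty acid desaturase and elongase genes lay above 0, with a median of 0.52, or 0.28 without wild-type replicate 3, and the desaturase genes *fat-6*, *fat-2* and *fat-3* rose by 0.98, 0.75 and 0.42. Of the 15, *fat-2* alone rose when wild-type replicate 1 or 2 or any *ddx-23* library was left out. Among 8 fatty acid and retinol binding proteins, a list chosen after values were seen, 5 rose. *far-3* went from 4.68, 4.35 and 4.62 to 8.54, 8.25 and 8.36 (difference 3.83, adjusted p = 2.75e-04), and *far-2*, at 12.40, 12.27 and 12.48 in wild-type, rose by 0.67 (adjusted p = 0.0023). Of the 8, 2 rose when wild-type replicate 1 or 2 or any *ddx-23* library was left out.

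All 30 FMRFamide-like neuropeptide genes had a difference above 0, with a median of 1.0. Of these, 4 passed, *flp-11* (1.44), *flp-4* (1.26), *flp-8* (1.16) and *flp-14* (1.12), and 18 were higher at an unadjusted p under 0.05. When wild-type replicate 3 was left out 16 passed, and 0 or 1 did when any of the other 5 libraries was. Of 28 insulin-like peptide genes 5 rose and *ins-2* fell by 1.42, beside 7.17% of all tested genes that rose and 1.46% that fell. *ins-23* was listed at 0, 0 and 1.43 in wild-type and 3.44, 3.93 and 2.99 in *ddx-23* libraries, and the agonist genes *daf-28* and *ins-6* rose by 1.17 and 1.04. When wild-type replicate 1 or 2 or any *ddx-23* library was left out, 1 or 2 of the insulin-like genes rose, against 7 without wild-type replicate 3, and *ins-2* passed as lower only without *ddx-23* replicate 3. The 10 neuronal markers had 0 genes past the adjusted p in limma (3 higher at an unadjusted p under 0.05, and 4 passed without wild-type replicate 3). They summed to 331.4 to 500.5 FPKM in wild-type, with replicate 3 the highest, and to 492.7 to 507.6 in *ddx-23* libraries. The part of neuronal RNA content in the neuropeptide values was not tested.

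Some transcripts of the splicing machinery itself passed. The share that rose was 13.3% of tri-snRNP proteins and 4.41% of a wider spliceosome list, beside 7.17% of all tested genes. The tri-snRNP share is 2 of 15 genes, and 1 of the 2 is *ddx-23*, the mutated gene itself. Of all tested genes 1.46% fell. Among 15 tri-snRNP proteins *prp-38*, needed in yeast to activate the assembled spliceosome, fell by 0.78 (SE 0.10, adjusted p = 8.62e-04). Its level was 6.69, 6.78 and 6.68 in wild-type and 5.92, 5.92 and 5.97 in *ddx-23* libraries, and it was also 0.66 and 0.78 below *lin-29* and *mab-10* mutants (adjusted p = 0.00114 and 0.00128). Besides *ddx-23*, the small tri-snRNP protein gene *dib-1* rose from 7.23, 7.25 and 7.39 to 8.07, 7.67 and 7.66 (difference 0.51, adjusted p = 0.0339). It no longer passed in 8 of the 17 alternatives. The large partners of DDX-23 in the particle, *prp-8*, *snrp-200* and *eftu-2*, had differences of 0.09, 0.13 and 0.29 that did not pass. The median of the 15 genes was 0.11, beside 0.09 for all tested genes, and 1 rose without any library other than wild-type replicate 3, whose omission gave 3.

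In a wider list of 68 spliceosome proteins, which repeats 6 of the tri-snRNP members, 3 rose and 2 fell (9 and 5 at an unadjusted p under 0.05), and 1 of the decreases is the *prp-38* value given above. The splicing factor gene *prpf-4* rose from 5.94, 6.08 and 6.0 to 6.51, 6.63 and 6.64 (difference 0.58, SE 0.11, adjusted p = 0.00735), and was 0.69 and 0.66 above the other mutants. The DEAH-box helicase gene *mog-5* and the U2AF small subunit gene *uaf-2* rose by 0.30 and 0.28, and the counts of genes that rose and fell were 1 and 1 without wild-type replicate 1 or 2 or *ddx-23* replicate 2 or 3, 2 and 1 without *ddx-23* replicate 1, and 3 and 3 without wild-type replicate 3. The median of this list was 0.07, and -0.04 after either rescaling. None of 30 SR and hnRNP genes passed in limma (3 were lower at an unadjusted p under 0.05, and 2 were higher and 1 lower without wild-type replicate 3). These proteins bind exons and introns and set splice site choice. None of 11 genes of nonsense-mediated decay passed (1 was lower at an unadjusted p under 0.05), and their differences ran from -0.23 to 0.12. Gene-level values do not show which introns were removed.

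Genes called lower were fewer and their decreases smaller. *fbxb-14*, an F-box gene, was at 2.88, 1.86 and 3.42 in wild-type and 0, 0.31 and 0.14 in *ddx-23* libraries. The more abundant *spex-3* fell from 7.52, 7.24 and 7.19 to 5.33, 5.29 and 5.10 (difference -2.08, SE 0.24, adjusted p = 4.36e-04) and *txt-4* from 6.57, 6.23 and 5.99 to 4.43, 4.22 and 3.94 (difference -2.07, adjusted p = 5.92e-04). *txt-4* was also below *lin-29* and *mab-10* mutants, by 1.63 and 1.40. The acid phosphatase gene *pho-11* fell by 1.73, and the others among the 10 largest decreases were *Y38H6C.8*, *Y45F10C.4*, *W04H10.5*, *clec-222*, *clec-223* and a histone gene (WBGene00001929). *W04H10.5* was listed at 2.30, 0.82 and 3.86 in wild-type and at 0 in all *ddx-23* libraries. The histone gene was listed at 0 in every mutant library of all 3 genotypes and shares the symbol *his-45* with another gene (WBGene00001919). Histone genes have near-identical copies between which reads may be split, so its values are uncertain.

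Among the other genes called lower were metabolic enzymes, which were picked out after their values were seen. *ard-1*, a short-chain dehydrogenase gene on chromosome IV from 11131279 to 11133805, fell from 7.34, 7.27 and 7.46 to 6.23, 6.24 and 6.11 (difference -1.17, SE 0.09, adjusted p = 4.89e-05) and was 1.2 and 1.16 below the other mutants. The acid sphingomyelinase gene *asm-3* fell by 1.36, the dehydrogenase gene *dhs-18* by 1.13 and the galectin gene *lec-6* by 1.11. *dod-23*, a gene named as downstream of *daf-16*, fell from 7.86, 7.87 and 7.38 to 6.62, 6.39 and 6.27 (difference -1.27, adjusted p = 2.82e-04). None of these 5 genes had overlapping groups, which held for all 57 genes called lower.

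Housekeeping complexes shifted by small amounts. The shares over all tested genes were 7.17% that rose and 1.46% that fell. In a list chosen after values were seen, 8 of 14 subunits of the proteasome core, which degrades ubiquitinated proteins, fell, and all 14 differences lay between -0.45 and -0.13. *pbs-1* was at 8.56, 8.60 and 8.47 in wild-type and 8.09, 8.16 and 8.05 in *ddx-23* libraries (difference -0.45, SE 0.07, adjusted p = 0.00353). The count was 2, 1, 7, 4, 2 and 2 without wild-type replicates 1, 2 and 3 and *ddx-23* replicates 1, 2 and 3, and it was 8 after quantile normalization and 9 after scaling by the median ratio. Of 19 regulatory subunits, listed at the same stage, 2 fell, 0 or 1 with any 1 library left out, with a median of -0.16. Of 82 ribosomal protein genes *rpl-11.1* alone fell (-0.40, adjusted p = 0.0128), the median was -0.16, and 28 fell without wild-type replicate 3, 3 without *ddx-23* replicate 1, and 0 without any of the other 4 libraries or after quantile normalization, which put the median at -0.00 (24 were lower at an unadjusted p under 0.05). Further lists chosen after values were seen gave changes both ways. Of 21 saposin-like genes 4 rose and 4 fell, and these counts were 2 and 2 without *ddx-23* replicate 3 or wild-type replicate 1, 2 and 3 without *ddx-23* replicate 1, 2 and 1 without *ddx-23* replicate 2, and 6 and 6 when wild-type replicate 3 was left out. Of 5 actin genes *act-1* (0.63) and *act-3* (0.39) rose and *act-5* fell, with 1 rising when any *ddx-23* library or wild-type replicate 2 was left out. Of 3 exon junction complex genes the helicase gene *eif-4A3* rose (0.53), though not without *ddx-23* replicate 2 or after either rescaling.

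Genes of the mitochondrial genome had differences above 0 for all 12 protein-coding members, with a median of 0.49. Of the 12, 4 rose, or 33.3%, beside 7.17% of all tested genes. Those encoding ND4L, ND6, ND2 and COX2, subunits of respiratory complexes, rose by 1.47, 1.44, 1.01 and 0.44 (adjusted p = 0.0122, 0.046, 0.024 and 0.00841). The 2 mitochondrial ribosomal RNA genes rose by 1.52 and 1.39 (adjusted p = 0.029 and 0.0269), the former from 4.45, 4.82 and 5.81 to 6.73, 6.48 and 6.43. The number of protein-coding members that rose was 1 without *ddx-23* replicate 1 or 2 and 2 without wild-type replicate 1 or 2 or *ddx-23* replicate 3. Transcripts of this genome hold no introns.

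Genes with few introns were called higher more often than genes with many. Of 3414 tested protein-coding genes with 0 to 2 introns 317 were called higher, or 9.29%, and of 2484 genes with 9 or more introns 59 were, or 2.38%, beside 4.70% of all tested genes. The share was 11.1% for intronless genes, 10.9% with 1 intron, 7.88% with 2, 3.82% with 3 and 1.5% with 13 or more. Many collagens and secreted peptides are short genes with few introns. Without the cuticle collagens, 265 of 3306 genes with 0 to 2 introns were called higher, or 8.02%. When genes were split into 3 equal groups by mean level, the shares in the highest group were 6.92% with 0 to 2 introns, 1.1% with 3 to 8 and 0.55% with 9 or more. Transcript length moved with the number of introns: among the shortest of 3 equal groups of transcripts the shares were 9.89% with 0 to 2 introns and 5.01% with 3 to 8, among the middle group 7.66% with 0 to 2, 3.51% with 3 to 8 and 3.42% with 9 or more, and among the longest 3.30%, 2.33% and 2.24%, where only 91 genes have 0 to 2 introns. Genes were called lower in 0.90% of the intronless and 0.11% of those with 13 or more introns. These shares are counts over genes, which are not independent replicates, and were not tested.

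**Figure D4:**
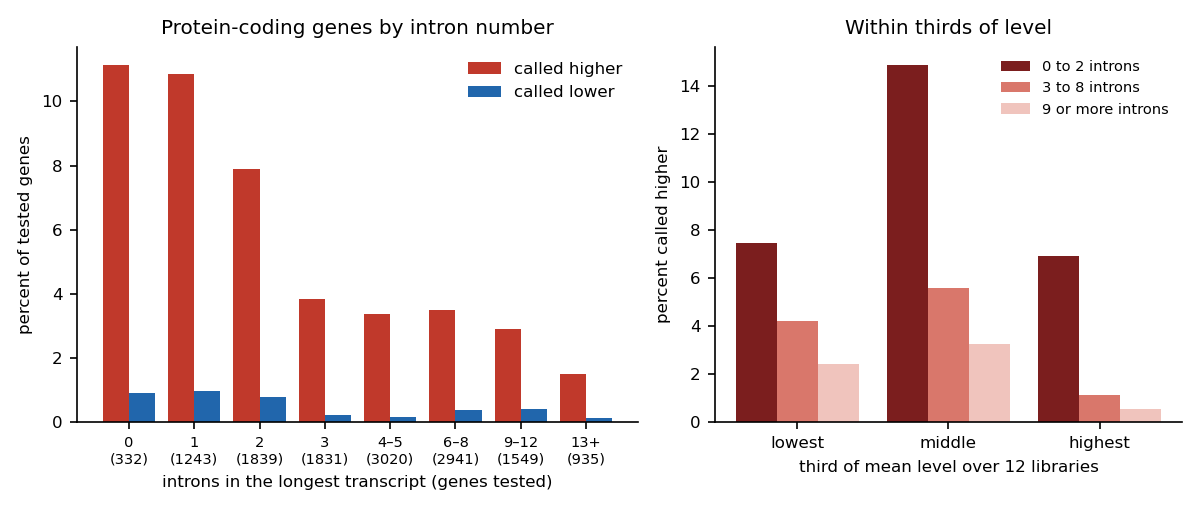
The bars give the percentage of tested protein-coding genes called higher or lower in *ddx-23* by the number of introns of the longest annotated transcript, and by the number of introns within 3 equal groups of mean level. The share called higher fell from 11.1% for intronless genes to 1.5% for genes with 13 or more introns, and within each level group it was largest for genes with 0 to 2 introns.

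Calls also clustered along the chromosomes. On chromosome V 212 of 2768 tested genes were called higher, or 7.66%, whereas the other nuclear chromosomes had 3.26% to 4.40%. Among 100 windows of 1 megabase with at least 50 tested genes, the window from 3000001 to 4000000 on chromosome V had the largest share, 32 of 116 genes or 27.6%, and the next was a window on the X chromosome with 16 of 139 or 11.5%. Within the chromosome V window a stretch, whose ends were set after the values were seen, held 22 genes called higher and 0 called lower among 48 tested genes. The called genes ran from 3157086 to 3401063, and the stretch reached beyond them on both sides. The groups did not overlap for 32 of the 48 in the direction of an increase. The median difference was 2.65 for the 22 and 1.2 for all 48. Leaving out any 1 library gave 18 to 26 genes.

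The genes of this stretch are mostly short, and 17 of the 22 have 2 introns. The first called gene is *exh-1*, on the plus strand from 3157086 to 3157871. It was at 4.79, 4.85 and 4.18 in wild-type and 7.17, 7.43 and 7.20 in *ddx-23* libraries (difference 2.66, SE 0.25, adjusted p = 1.42e-04). F35F10.5 went from 3.17, 3.0 and 2.98 to 6.37, 6.06 and 6.01 (difference 3.09, adjusted p = 1.19e-04) and C17B7.12 from 0, 0 and 1.18 to 4.41, 4.47 and 4.24 (difference 3.98, adjusted p = 1.91e-04). T28A11.3 was listed at 0 in all wild-type libraries and at 3.90, 3.55 and 3.45 in *ddx-23* libraries. The calls came in runs that carry the same clone prefix: C36C5.12, C36C5.14 and C36C5.15, 6 genes of T28A11, 4 of F35F10, 4 of C17B7 and 3 of T20D4, and C04E12.2. Genes between them did not all follow, since *apx-1*, a Notch ligand gene, *gst-23* and the scramblase gene *scrm-3* differed by 0.21, 0.57 and -0.13 and did not pass. Of the 22, 21 passed as higher than in *lin-29* and 14 as higher than in *mab-10* mutants (6.99% and 4.89% of all tested genes), but these contrasts use the *ddx-23* libraries by which the 22 were chosen, so nothing is read from those counts. The *nlp* peptide gene *nlp-34* lies outside the stretch.

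**Figure D5:**
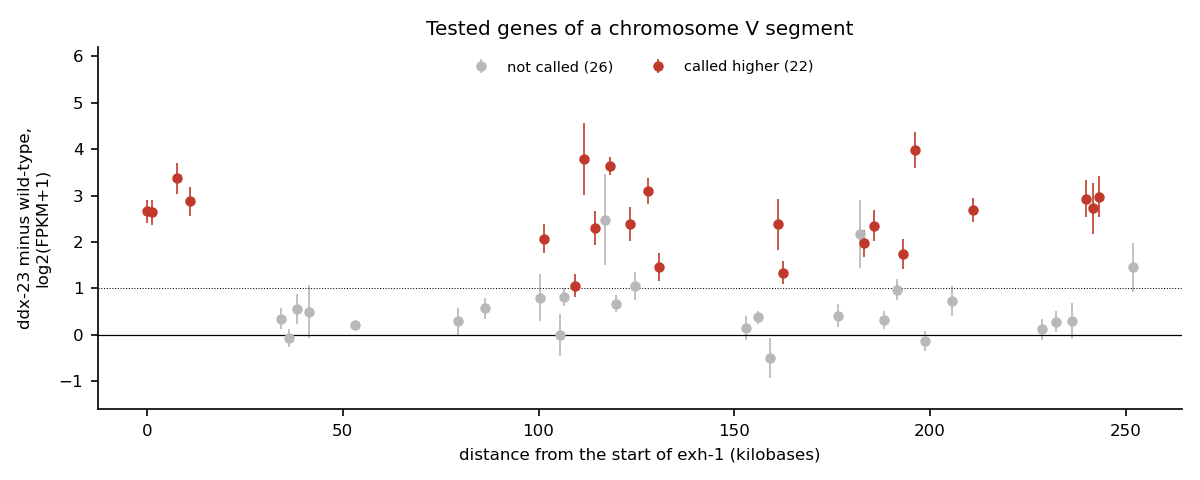
Differences between *ddx-23* and wild-type in log2(FPKM+1), with bars of 1 SE, for the 48 tested genes of the stretch on chromosome V by distance in kilobases from the start of *exh-1*. The 22 genes called higher (red) are spread along the stretch between uncalled neighbours, and the median over all 48 was 1.2.

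Tissue markers were read beside these results, and beside the 7.17% of all tested genes that rose and the 1.46% that fell. Intestinal markers summed to 3891.7 to 4503.6 FPKM in wild-type and 3134.9 to 3966.6 in *ddx-23* libraries, and 1 of 9 fell, the microvillar actin gene *act-5* (-0.84, adjusted p = 0.0259). *act-5* lost the threshold when wild-type replicate 1 or 2 or any *ddx-23* library was left out, and 2 intestinal markers fell without wild-type replicate 3. Hypodermal markers summed to 129.3 to 236.4 against 370.4 to 502.6, with *col-10*, *grd-10* and *elt-3* of 9 higher (2 of 9 when wild-type replicate 1 or 2 or any *ddx-23* library was left out). The median of the 9 was 0.09, as over all tested genes, 3 of them lay below 0, and the hypodermal factor gene *lin-26* differed by 0.13 (adjusted p = 0.55). Of 70 sperm genes 7 rose, or 10%, near the 7.17% of all tested genes, while 68 lay above 0 and the median was 0.66. They summed to 1413 to 2043.2 in wild-type and 1901.1 to 3492.7 in *ddx-23* libraries, which overlap, and the count was 1 without wild-type replicate 2, 4 when replicate 3 was left out instead and 2 without *ddx-23* replicate 1 or 2. None of 20 oocyte and germ line genes, 12 eggshell genes, 6 vitellogenins, 6 early embryo genes, 7 sheath genes or 6 vulva and uterus genes passed in limma (at an unadjusted p under 0.05, 1 oocyte and 1 eggshell gene were higher and 2 oocyte genes, 2 vitellogenins and 1 sheath gene were lower), and 2 vitellogenins and 1 oocyte gene passed as lower without wild-type replicate 3. Of 9 pharyngeal markers *marg-1* rose (1.47), and 3 did without wild-type replicate 3. The part of these markers in the other results was not tested.

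The calls were also set beside the other mutants. Of the 667 genes called higher, 182 also passed as higher in *ddx-23* than in *lin-29* and in *mab-10* mutants, and of the 57 called lower 30 also passed as lower than in both. Over all tested genes 6.99% passed as higher than in *lin-29* and 4.89% as higher than in *mab-10* mutants, and 14.2% and 3.19% as lower. The comparisons share the *ddx-23* libraries by which the calls were made, so nothing is read from these counts. The 182 include the collagens *col-175*, *col-138*, *col-38*, *col-49*, *col-71*, *col-7* and *col-62*, *numr-1*, the acid phosphatase-family gene *pho-6*, *clec-52*, *nlp-27*, *ttr-18*, *ets-4*, *eak-6*, *cyp-32A1*, *nas-10* and W05H9.3. For *pho-6* the level was 0.81, 0.90 and 2.52 in wild-type and 6.43, 5.91 and 6.40 in *ddx-23* libraries, and it was 3.64 and 3.18 above the other mutants (adjusted p = 9.39e-04 and 0.00592). *epic-3* was listed at 0 in all wild-type libraries and at 4.05, 3.55 and 3.26 in *ddx-23* libraries, with means of 0.46 in *lin-29* and 0.32 in *mab-10* mutants.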

How the data were processed

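Total RNA of whole young adult hermaphrodites was sequenced in 12 libraries, 3 for each of 4 genotypes, and groups were taken from the labels. Reads were mapped with STAR 2.5.3a and genes quantified with RSEM 1.3.0 after FastQC, per the submitters' notes, against the WS258 reference named in the study. The authors deposited log2 values, log2(FPKM+1), for 46761 genes (26789 were 0 in all libraries), and FPKM sums are 1038344 to 1130220 per library. Read depth per library is unknown from such values, which limits the precision of low levels, and the DESeq2 test of the study needs counts, which the values do not hold.

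The 14199 genes that reached an FPKM of 1 in 3 or more of the 12 libraries were tested. Limma 3.58.1 (R 4.3.3; mean-variance trend, robust) was fitted to the 12 libraries (8 residual degrees of freedom), and p-values were adjusted by Benjamini-Hochberg over all tested genes in each contrast. They measure the spread between libraries. Calls needed a difference past 1 as well as an adjusted p under 0.05. Named are *ddx-23*, *lin-29*, *mab-10* and *col-19*, the 15 largest increases and 10 largest decreases among calls whose groups do not overlap, at most 8 passing members of each list in each direction, and members an account needs. The comparison, lists and rules were chosen with earlier results of these data known, and the proteasome, fatty acid binding protein, saposin-like, actin, exon junction complex and smallest-p genes and the chromosome V stretch after their values were seen. Symbols for the mitochondrial list were replaced by the 12 protein-coding genes annotated there, and *imp* genes, which are proteases, were dropped from the spliceosome list. Positions and introns come from the Ensembl 115 annotation of WBcel235, later than WS258, which covers 14156 of the tested genes. Values identical to those of another gene occur for 71 tested genes. Splice site letters were not analysed here, and 1 gene of the spliceosome list is not reported here. The fit was tested on simulated data. Alternatives were other scalings, pseudocounts and filters, a 2-group fit, a replicate block, the library numbers and each library left out. Python 3.11.15, numpy 2.4.6, pandas 2.3.3 and matplotlib 3.10.9 were used.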

Additional observations from a re-analysis of the deposited data

How the results depend on the processing

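Beside the 667 genes called higher and 57 called lower, the counts were 743 and 88 with a pseudocount of 0.1, 594 and 86 with libraries scaled by their median ratio, 461 and 152 after quantile normalization, 1281 and 171 among libraries numbered 3233 to 3244, and 1209 and 139 with a term for the library numbers. With any 1 library left out they ranged from 428 to 977 and from 31 to 125. The replicate numbers did not pair the libraries: deviations of same-numbered libraries correlated at 0.067, -0.053 and 0.030, and with the replicate number as a block 682 genes were higher and 87 lower. The cause of these shifts was not tested. Of 215 named genes that passed, 100 passed under all 17 alternatives, the others lost the threshold in at least 1, and 0 changed direction. Losses were 86 to 103 when wild-type replicate 1 or 2 or any *ddx-23* library was left out, 22 when wild-type replicate 3 was, 45 after quantile normalization and 17 with the block.

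Depth is unknown, so differences of genes near 0 are uncertain. The *ddx-23* libraries hold adjacent numbers (3239 to 3241), so a library effect shared by them and the genotype cannot be told apart. Gene-level values cannot show splicing, and how reads of near-identical genes were split between copies is unknown.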
